A study of Mus musculus with 4 samples.

Results

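Neurod1, Stmn2, Stmn3, Nefl, Nefm, Tubb3, Map2, Dcx, Gap43 and Nes are 10 genes used to follow the differentiation of neurons. They were measured here in mouse embryonic stem cells with and without RNA interference against Chd4. The members are all probe sets that the array platform's annotation assigns to one of these genes and to no other gene. There are 22 such probe sets among the 45101 of the array, and each of the 10 genes has at least 1. The rule goes by gene symbol and uses no signal, but the genes were picked with earlier results of these arrays known.

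Expression was measured with single-colour Affymetrix arrays on total RNA from the J1 line of mouse embryonic stem cells. The 2 Chd4 RNAi arrays came from cells of the inducible line Chd4i-1 that had received 5 ng/ml doxycycline for 3 days. The 2 control arrays came from the same line without doxycycline, so both groups carried the RNAi construct. All cells were grown on gelatin in medium with fetal bovine serum and leukaemia inhibitory factor, which keeps stem cells undifferentiated. The arrays of a group are described as biological duplicates, and the comparison asks what follows in stem cells when Chd4 is depleted. Chd4 is the ATPase of the NuRD complex, which remodels nucleosomes and removes acetyl groups from histones. A single RNAi line was used, and no doxycycline-treated line without the construct was analysed here. The effects of doxycycline and of Chd4 loss therefore cannot be told apart.

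Neuronal differentiation runs from dividing progenitors, which carry the intermediate filament nestin, to postmitotic neurons that extend an axon and dendrites. Basic helix-loop-helix factors such as Neurod1 bind E-box sequences in DNA and switch on neuronal genes. The new neuron then builds a cytoskeleton of neurofilaments, the neuronal beta-tubulin Tubb3, microtubule-binding proteins such as Map2 and Dcx, and stathmins that regulate microtubule turnover. In many cells outside the nervous system, the repressor REST holds such genes down together with corepressors and histone deacetylases.

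Promoters are shown for Neurod1 and Stmn3, the pair with the largest falls among the members, and for Tubb3, the member that rose. Each is the 250 bases before the RefSeq start of the gene (GRCm38.p6), written 5′ to 3′ on the strand of the gene. Capitals mark each match to the E-box, CANNTG, which reads the same on both strands.
Neurod1, chr2:79456637-79456886, minus strand: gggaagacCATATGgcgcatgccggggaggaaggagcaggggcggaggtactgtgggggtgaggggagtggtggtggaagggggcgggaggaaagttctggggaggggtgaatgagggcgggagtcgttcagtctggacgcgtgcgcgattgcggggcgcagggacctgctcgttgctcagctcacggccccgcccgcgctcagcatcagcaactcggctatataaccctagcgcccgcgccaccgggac
Stmn3, chr2:181314501-181314750, minus strand: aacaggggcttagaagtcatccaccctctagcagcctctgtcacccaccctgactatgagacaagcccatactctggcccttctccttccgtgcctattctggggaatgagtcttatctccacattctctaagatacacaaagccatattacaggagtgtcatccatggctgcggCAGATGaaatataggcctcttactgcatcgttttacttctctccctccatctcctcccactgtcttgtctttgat
Tubb3, chr8:123411303-123411552, plus strand: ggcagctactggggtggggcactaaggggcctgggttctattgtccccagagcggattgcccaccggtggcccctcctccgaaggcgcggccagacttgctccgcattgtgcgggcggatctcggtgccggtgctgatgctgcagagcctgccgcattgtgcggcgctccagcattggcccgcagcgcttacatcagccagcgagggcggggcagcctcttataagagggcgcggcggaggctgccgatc

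Neurod1 and Stmn3 each held 1 E-box, CATATG and CAGATG, and Tubb3 held 0. Promoter sequence was at hand for 6 of the 10 genes. The windows of Map2, Nes and Dcx (which has 2 RefSeq starts) held 0 E-boxes. An E-box was found in 66.2% of the 32841 promoter windows of the same length. The GC box, GGGCGG on either strand, matched 5 times in Map2, 4 times in Neurod1, 2 times each in Tubb3 and Nes and 0 times in Stmn3 and Dcx, and was present in 32.7% of all windows. Base composition also differed. G and C made up 67.6% of the Neurod1 window, 48.8% of that of Stmn3 and 68.0% of that of Tubb3, against a median of 52.4% over all windows. The left part of the REST site, CAGCACC on either strand, matched 1 time in Tubb3 and 0 times in the other 5 genes with a window, and was present in 5.73% of windows. The right part of that site, GGACAG, matched 1 time in Map2 and 0 times in the other 5, and was present in 18.7% of windows. A match describes the letters only.

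The arrays shared 1 scale. After 2% was trimmed from each end of the distribution, array means ran from 496.5 to 497.2, and array medians from 73.4 to 79.4. Signals are on the linear MAS5 scale throughout, where each probe set has its own sensitivity, so levels are compared between arrays and not between genes. All 3 probe sets of Chd4 were lower on both Chd4 RNAi arrays, at 48.5% to 65.0% of control (limma, adjusted p = 0.000244 to 0.00638). Pluripotency markers had high signals in both groups. All 11 of the listed markers lay above the median of every array, with summed signals of 126438 and 123645 on the Chd4 RNAi arrays and of 123372 and 125813 on the control arrays. In such sums, here and below, the brightest probe sets weigh most. The brightest of these markers, Dppa5a, had 28361 and 26856 in Chd4 RNAi cells, against 23764 and 24561 in control cells, so a like sum can hide opposite changes. Of the 11 markers 3 were higher and 2 lower in Chd4 RNAi cells, beside 10.3% higher and 7.79% lower over all genes tested. Esrrb, of lowest p among them, fell to 81.8% of control (log2 -0.29, limma adjusted p = 0.00722). With each array left out its difference ran from -0.32 to -0.26. Without control replicate 2 the calls of Klf4, Utf1 and Klf2 were lost, at differences of -0.20, 0.23 and 0.20. In RNA from a whole culture, fewer cells of a type and less RNA per cell cannot be told apart.

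Of the 22 neuronal probe sets, 11 lay above the median signal of the array on all 4 arrays, 9 lay below it on all 4 and 2 lay on different sides on different arrays. Over the whole array, 44.5% of probe sets lay above the median on all 4 arrays. The 11 belonged to 8 genes, namely Neurod1, Stmn2, Stmn3, Tubb3, Gap43, Map2, Nes and Nefl. Every probe set of Dcx was below the median on each array, and the single probe set of Nefm crossed it. Each difference is the mean log2 signal of the Chd4 RNAi arrays minus that of the control arrays, with no pseudocount. Tests were run in limma over the 27022 non-control probe sets with the highest mean signal (the top 60%, a mean signal of 42.4 or more). That filter kept 14 of the 22 member probe sets, from 9 genes.

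**Figure D1:**
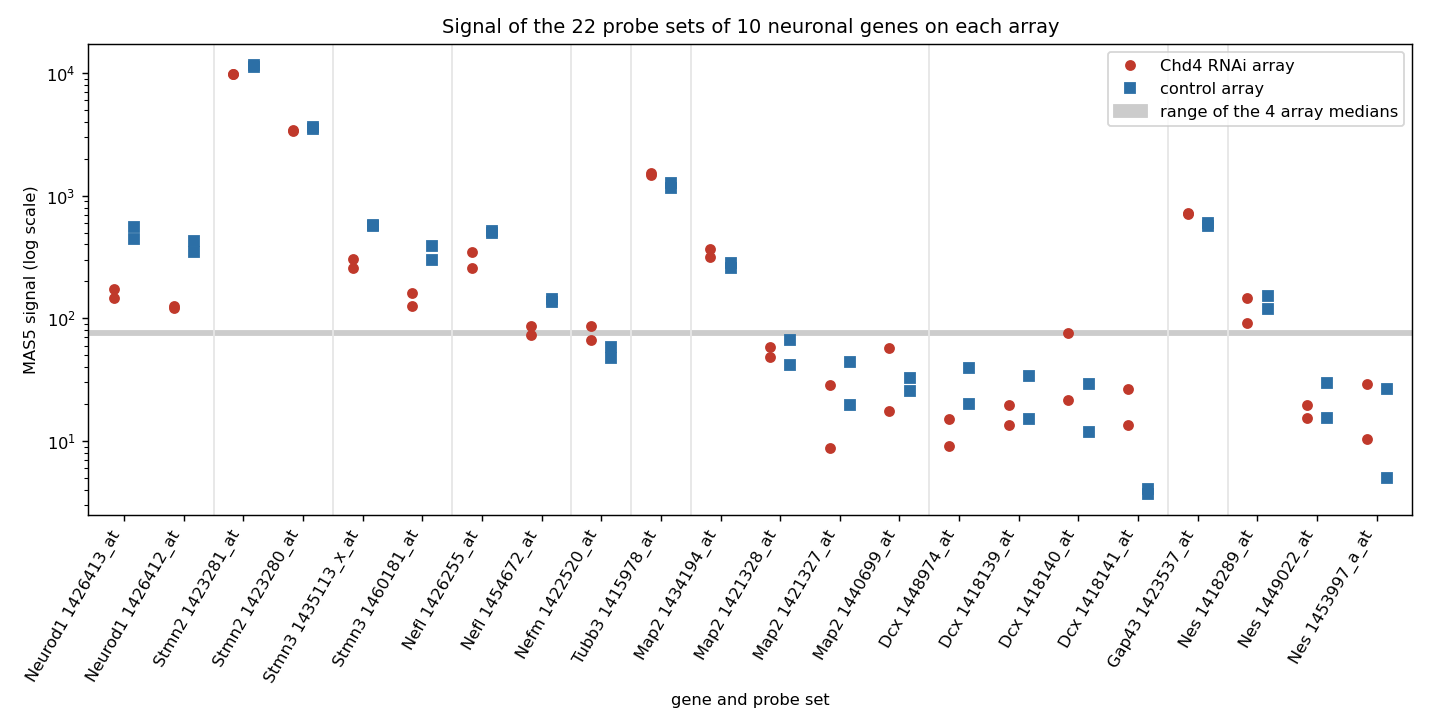
MAS5 signal (log axis) of each of the 22 probe sets on the 2 Chd4 RNAi arrays (red circles) and the 2 control arrays (blue squares); the grey band spans the 4 array medians, 73.4 to 79.4. The circles of Neurod1 and Stmn3 lie below their squares at both probe sets, and all 4 probe sets of Dcx lie in or under the band.

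At an adjusted p under 0.05, 6 of the 14 tested probe sets were lower and 1 was higher in Chd4 RNAi cells. Over all probe sets tested, 6.77% were lower and 7.46% higher. With each gene represented by its brightest probe set, Neurod1, Stmn3, Nefl and Stmn2 fell and Tubb3 rose among the 9 tested genes, while 7.79% of all 12615 genes tested fell and 10.3% rose. The median log2 difference of the 9 genes was -0.20, against 0.014 over all genes tested. The groups did not overlap at 8 tested member probe sets that were lower and 4 that were higher. Non-overlap was common on these arrays, at 28.4% of all probe sets tested in the lower and 27.5% in the higher direction. All of these calls rest on a variance model that depends on signal. Without that trend limma called 0 of the 27022 probe sets, at a lowest adjusted p of 0.0594, with 2893 higher and 2935 lower at an unadjusted p under 0.05. Among the members 2 were higher and 6 lower at that unadjusted threshold.

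**Figure D2:**
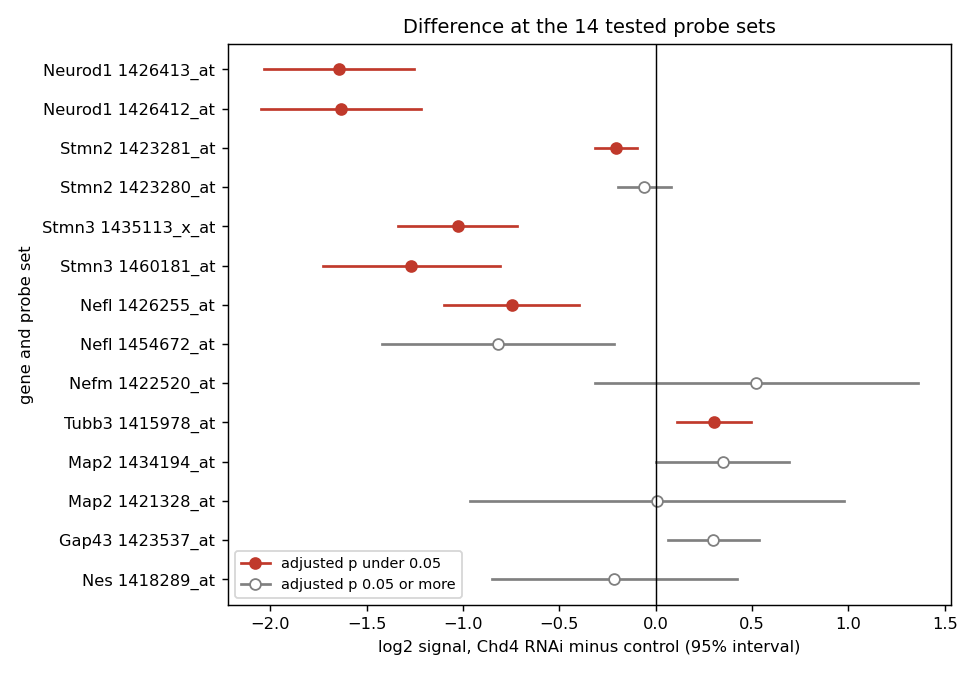
Log2 signal in Chd4 RNAi minus control at the 14 tested probe sets, with 95% intervals from the limma fit; filled red points passed at an adjusted p under 0.05. The Neurod1 and Stmn3 probe sets lie between -1.64 and -1.03, and Tubb3 at 0.30.

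Neurod1, the basic helix-loop-helix activator of neuronal and endocrine genes, showed the largest fall. At probe set 1426413_at its signals were 147 and 173 on the Chd4 RNAi arrays, against 445 and 558 on the control arrays. At 1426412_at they were 126 and 120 in Chd4 RNAi cells, against 344 and 424 in control cells. All 4 Chd4 RNAi values lay under all 4 control values, and both probe sets stayed above the array median in both groups. The log2 difference was -1.64 ± 0.18 at the first (SE, adjusted p = 0.000156) and -1.64 ± 0.19 at the second (adjusted p = 0.000251), which leaves 32.0% and 32.2% of control. Leaving out any 1 array kept the first between -1.81 and -1.48, with adjusted p values up to 0.000894.

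Other activators of neuronal fate mostly lay below the median signal. Of 17 proneural and neuronal transcription factor genes on the array, 15 lay below the median of every array, 0 lay above it on all 4, and 2 were tested. By limma 0 of these passed, and 0 were under an unadjusted p of 0.05. Neurog3, an activator that acts upstream of Neurod1 in the pancreas, had signals of 36.4 and 46.9 in Chd4 RNAi cells, against 51.4 and 61.2 in control cells (adjusted p = 0.581). The relatives Neurod2, Neurod4 and Neurod6 were not tested. Neurod4 had 35.2 and 1.38 in Chd4 RNAi cells, against 4.13 and 22.6 in control cells. Myt1l, also left untested by the filter, had 88.0 and 47.6 in Chd4 RNAi cells, against 21.3 and 5.90 in control cells. The groups were apart, but in limma with no filter it did not pass (adjusted p = 0.126). It is named here after its values were seen.

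The stathmins bind tubulin dimers and favour the shortening of microtubules. Stmn3 fell at both of its probe sets. At 1435113_x_at the signals were 304 and 255 on the Chd4 RNAi arrays, against 571 and 566 on the control arrays, a log2 difference of -1.03 ± 0.14 (SE, adjusted p = 0.000792). At 1460181_at they were 125 and 161 in Chd4 RNAi cells, against 389 and 299 in control cells (-1.27 ± 0.21, adjusted p = 0.00238). The groups were apart at both probe sets, and what remained was 49.0% and 41.5% of control. The suffix of 1435113_x_at marks a set whose probes may also bind other transcripts. The second probe set does not carry that suffix and moved the same way.

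Stmn2, a growth-cone stathmin also known as SCG10, had its higher signals at 1423281_at. They were 9718 and 9896 in Chd4 RNAi cells, against 11079 and 11522 in control cells. The mean signal there was at percentile 98.7 of all non-control probe sets. The groups did not overlap, but the difference was small, at 86.8% of control (-0.20 ± 0.050, adjusted p = 0.0188). The call ended without control replicate 2 (-0.18, adjusted p = 0.130) and without Chd4 RNAi replicate 1 (-0.19, adjusted p = 0.0503). It also ended with no filter on low signals (adjusted p = 0.0515) and with both probe sets averaged (-0.13, adjusted p = 0.0957). The other probe set, 1423280_at, had 3367 and 3450 in Chd4 RNAi cells, against 3613 and 3487 in control cells. Its difference of -0.058 had a 95% interval of -0.20 to 0.078 and did not pass (adjusted p = 0.601). Of the other stathmin genes, Stmn1 had 12155 and 12132 in Chd4 RNAi cells, against 12616 and 12296 in control cells (adjusted p = 0.675). Stmn4 was not tested, with signals between 5.19 and 32.7.

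Nefl, Nefm and Nes encode intermediate filament proteins. The first pair are the light and medium neurofilament subunits of axons, and nestin marks neural progenitors. Nefl fell at its brighter probe set, 1426255_at, with signals of 345 and 258 on the Chd4 RNAi arrays, against 511 and 492 on the control arrays. The groups were apart, and the log2 difference was -0.75 ± 0.16 (SE, adjusted p = 0.00990), or 59.5% of control. At the dimmer 1454672_at the signals were 86.0 and 73.1 in Chd4 RNAi cells, against 144 and 136 in control cells. That difference was of like size but did not pass over all probe sets (-0.82 ± 0.27, adjusted p = 0.0711). The first call held with each array left out, at adjusted p values of 0.00104 to 0.0390.

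Nefm lies near Nefl on chromosome 14, with 1 annotated gene, a pseudogene, between them. Its probe set 1422520_at had 85.9 and 66.8 in Chd4 RNAi cells, against 47.2 and 58.9 in control cells. Only Chd4 RNAi replicate 1 lay above the median of its array. The log2 difference was 0.52 with a 95% interval of -0.32 to 1.36 and did not pass (adjusted p = 0.419). The brightest Nes probe set, 1418289_at, had 145 and 92.2 in Chd4 RNAi cells, against 119 and 152 in control cells. The groups overlapped, and the difference of -0.22 had an interval of -0.85 to 0.42 (adjusted p = 0.688). The other 2 Nes probe sets were below the median on all arrays, with signals between 4.98 and 29.7.

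Other intermediate filament genes were measured beside them. Prph, the peripherin of peripheral neurons, had 1229 and 989 in Chd4 RNAi cells, against 584 and 537 in control cells (log2 0.98 ± 0.12 SE, adjusted p = 0.000373), although its other tested probe set had the opposite sign and the call was lost with probe sets averaged (0.35, adjusted p = 0.516). Ina, which encodes alpha-internexin, had 991 and 1113 in Chd4 RNAi cells, against 565 and 689 in control cells (0.75 ± 0.12, adjusted p = 0.00192), with both other tested probe sets of the same sign. Nefh, the heavy neurofilament subunit, had 1576 and 1176 in Chd4 RNAi cells, against 1013 and 1033 in control cells (0.41 ± 0.12, adjusted p = 0.0448). Its call was lost in limma with no filter (adjusted p = 0.0897). Vim, the vimentin of progenitors and mesenchyme, had 2069 and 1633 in Chd4 RNAi cells, against 3220 and 3104 in control cells (-0.78 ± 0.099, adjusted p = 0.000446). At these probe sets Prph, Ina and Nefh rose while Nefl and Vim fell, and Nefm and Nes, given above, did not pass. Ina and Nefh were chosen for mention after their values were seen, and the calls of Ina and Nefh were not followed with arrays left out.

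**Figure D3:**
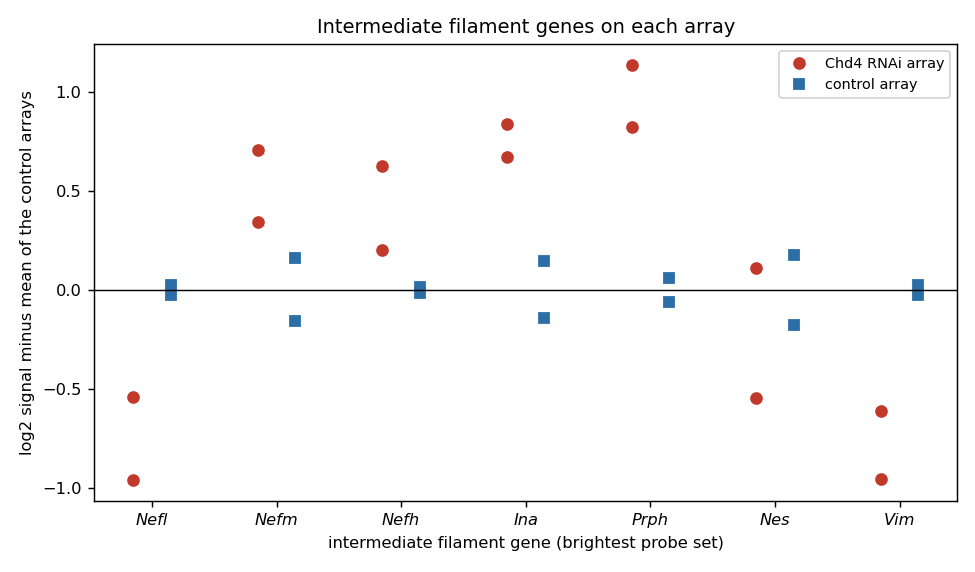
Log2 signal of 7 intermediate filament genes on each array, relative to the mean of the 2 control arrays, at the brightest probe set of each gene. Both Chd4 RNAi arrays (red circles) lie below the control arrays (blue squares) for Nefl and Vim and above them for Nefm, Nefh, Ina and Prph; the groups overlap for Nes.

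Tubb3, Map2 and Dcx belong to the microtubules, and Gap43 is a membrane protein of growth cones. Tubb3, the beta-tubulin class used as a neuronal marker, had 1464 and 1539 on the Chd4 RNAi arrays, against 1276 and 1161 on the control arrays at its single probe set, 1415978_at. The groups were apart, and the rise was 1.23-fold (log2 0.30 ± 0.086 SE, adjusted p = 0.0385). This call was close to the threshold. It ended without control replicate 2 (0.23, adjusted p = 0.222), without Chd4 RNAi replicate 1 (0.34, adjusted p = 0.0514) and without Chd4 RNAi replicate 2 (0.27, adjusted p = 0.128).

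Map2 encodes a protein that stabilises microtubules in dendrites. Its 1 probe set above the median, 1434194_at, had 318 and 369 in Chd4 RNAi cells, against 281 and 258 in control cells. The groups were apart, but the difference of 0.35 did not pass (95% interval 0.00033 to 0.69, adjusted p = 0.176). The other 3 Map2 probe sets overlapped between the groups and lay below the median, with signals between 8.78 and 66.9. Gap43 had 725 and 707 in Chd4 RNAi cells, against 599 and 566 in control cells at 1423537_at. The groups were apart there too, with a difference of 0.30 (95% interval 0.063 to 0.53, adjusted p = 0.0903) that did not pass.

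Dcx, the microtubule-binding protein doublecortin of migrating neurons, was dim throughout. None of its 4 probe sets passed the filter, and their signals ran from 9.12 to 75.3 in Chd4 RNAi cells, against 3.72 to 39.6 in control cells. At 1418141_at the Chd4 RNAi values of 26.3 and 13.5 lay above the control values of 4.07 and 3.72, and at 1448974_at the values of 9.12 and 15.0 lay below 39.6 and 19.9. Probe sets of the gene thus pointed both ways, and no fold is given where both groups lie under the median. With no filter, limma gave these 4 adjusted p values of 0.307 to 0.838.

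Genes that resemble the members were counted by list, at the brightest probe set of each gene. Among 20 tested relatives in the neuronal cytoskeleton and its transport, 8 rose and 2 fell, with a median log2 difference of 0.36, beside 10.3% higher, 7.79% lower and a median of 0.014 over all genes tested. Besides Prph, the axonal motor gene Kif1a rose, with 254 and 235 in Chd4 RNAi cells, against 98.5 and 79.5 in control cells (2.76-fold, adjusted p = 0.00191). The kinesin gene Kif5c had 819 and 808 in Chd4 RNAi cells, against 415 and 503 in control cells (1.78-fold, adjusted p = 0.00127), a call lost with probe sets averaged (adjusted p = 0.247). Dpysl2, a collapsin response mediator of axon growth, had 1571 and 1517 in Chd4 RNAi cells, against 2212 and 2236 in control cells (log2 -0.53, adjusted p = 0.000854), while its averaged probe sets gave -1.28 and an adjusted p of 0.0515. The count of rises was 5 to 8 with each array left out in turn, 5 of them without control replicate 2.

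Of 13 tested genes of synapses and the neuronal membrane, 1 rose and 0 fell by limma, with 2 and 3 at an unadjusted p under 0.05 and a median of 0.062. Over all genes tested 10.3% rose and 7.79% fell. The riser of the synaptic list was Syt1, a calcium sensor of vesicle release, with 135 and 111 in Chd4 RNAi cells, against 27.5 and 49.9 in control cells. It rose at an adjusted p of 0.0154, and the call ended without control replicate 1 or Chd4 RNAi replicate 1 (highest adjusted p 0.0707). With dim signals raised to the median signal, the bound of at least 1.61-fold did not pass (adjusted p = 0.111). Few probe sets of the array passed in that setting. The control mean of Syt1, 38.7, lay under the 42.4 of the filter, so the Chd4 RNAi arrays carried it into the tested set. In limma with no filter its adjusted p was 0.0499. Of 23 genes of the synaptic list on the array, 11 lay below the median of every array. Among 10 tested neuronal RNA-binding protein genes 0 rose and 1 fell by limma, with 0 and 3 at an unadjusted p under 0.05 and a median of -0.23. The one that fell, Celf5, had 350 and 387 in Chd4 RNAi cells, against 491 and 501 in control cells (log2 -0.43, adjusted p = 0.0487). The call of Celf5 ended without either control array or without Chd4 RNAi replicate 1 (highest adjusted p 0.180), with the replicate number as a block (adjusted p = 0.0576), with quantile normalization (0.0601) and with no filter (0.0714).

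**Figure D4:**
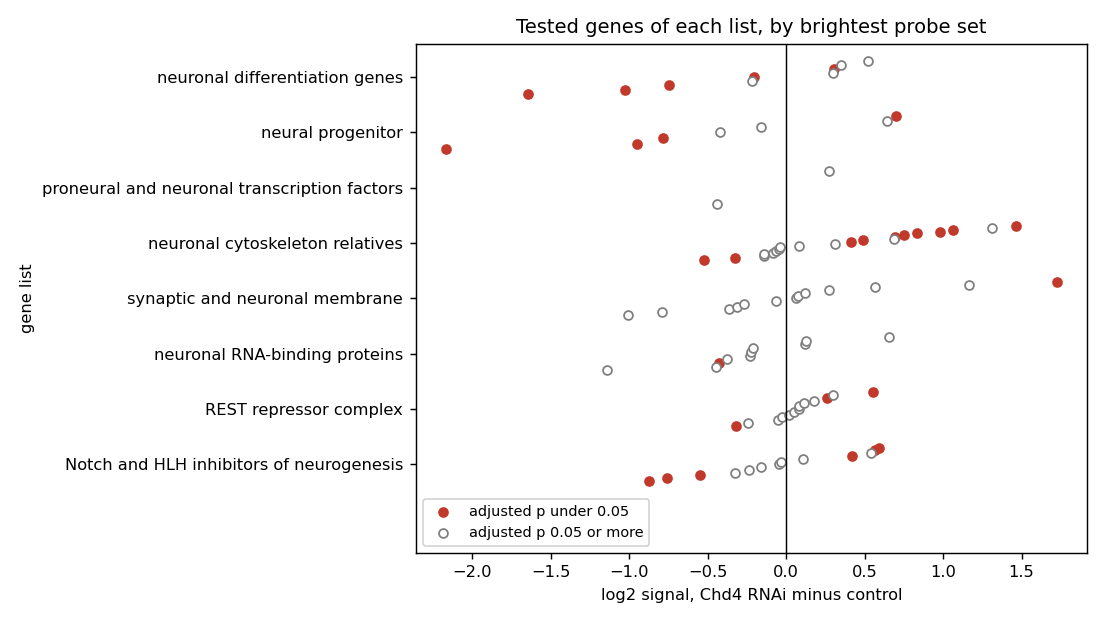
Log2 signal in Chd4 RNAi minus control for each tested gene of the 10 neuronal genes and of 7 related lists, at the brightest probe set of each gene; filled red points passed at an adjusted p under 0.05. The cytoskeleton relatives hold 8 filled points above 0 and 2 below, and the neuronal differentiation genes 1 above and 4 below.

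Genes of neural progenitors were also listed. Of 7 tested, 3 fell and 1 rose, with a median log2 difference of -0.42, beside 7.79% lower and 10.3% higher over all genes tested. Vim is given above. Sox3, a SoxB1 factor of neural progenitors, had 42.0 and 30.0 in Chd4 RNAi cells, against 140 and 181 in control cells (log2 -2.17, adjusted p = 0.00234). Its Chd4 RNAi signals lay under the 42.4 of the filter, so the control arrays carried Sox3 into the tested set. In limma with no filter its adjusted p was 0.0102. With dim signals raised to the median the fall was at least 2.10-fold and did not pass (adjusted p = 0.0987), nor did it with probe sets averaged (-1.22, adjusted p = 0.121). Msi1, the RNA-binding protein Musashi-1, had 228 and 192 in Chd4 RNAi cells, against 389 and 421 in control cells (log2 -0.95, adjusted p = 0.00294), a call lost with probe sets averaged (-0.74, adjusted p = 0.443). The averages of Sox3 and Msi1 drew on probe sets too dim to be tested. Prom1, a surface glycoprotein of progenitors and epithelia, had 672 and 649 in Chd4 RNAi cells, against 393 and 420 in control cells (0.70, adjusted p = 0.00271). Sox1 was left untested by the filter because its Chd4 RNAi signals of 21.3 and 5.40 lowered its mean, against 129 and 183 in control cells. With no filter its adjusted p was 0.0134, and with dim signals at the median it was at least 2.02-fold lower. It is named here after its values were seen.

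The repressors of neuronal genes were measured too. Rest had 5262 and 4579 in Chd4 RNAi cells, against 4945 and 4764 in control cells at its brightest probe set. The groups overlapped, with a difference of 0.016 (adjusted p = 0.913), and its other 3 probe sets had adjusted p values of 0.871 to 0.940. Of 13 tested genes of the REST corepressor complexes 2 rose and 1 fell, with a median of 0.081. Over all genes tested 10.3% rose and 7.79% fell, with a median of 0.014. Rcor2, which encodes a CoREST scaffold, had 876 and 786 in Chd4 RNAi cells, against 551 and 579 in control cells (1.47-fold, adjusted p = 0.00647). The demethylase gene Kdm1a had 11675 and 11015 in Chd4 RNAi cells, against 9347 and 9608 in control cells (1.20-fold, adjusted p = 0.00716). The deacetylase gene Hdac2, also a NuRD subunit, had 4402 and 4813 in Chd4 RNAi cells, against 5698 and 5793 in control cells (log2 -0.32, adjusted p = 0.00605).

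Notch signalling and the Id proteins restrain neurogenesis, and the Id proteins do so by binding the partners of proneural factors. Of 13 tested genes in that list, 3 rose and 3 fell, with a median log2 difference of -0.047. The shares over all genes tested were 10.3% higher and 7.79% lower. Id1 had 3600 and 3556 in Chd4 RNAi cells, against 2528 and 2316 in control cells (1.48-fold, adjusted p = 0.000362), and Id2 rose 1.51-fold (adjusted p = 0.00246). Id3 rose 1.34-fold (adjusted p = 0.0396), whereas Id4 fell, with 154 and 130 in Chd4 RNAi cells, against 214 and 314 in control cells (log2 -0.88, adjusted p = 0.0266). Id3 and Id4 were named after their values were seen. In limma with no filter both calls were lost, at adjusted p values of 0.0585 and 0.0567. Other alternatives were not followed for them. The Notch ligand gene Jag1 had 278 and 297 in Chd4 RNAi cells, against 504 and 470 in control cells (log2 -0.76, adjusted p = 0.00416). Of its 2 other tested probe sets 1 had the same sign, and the call was lost with probe sets averaged (-0.31, adjusted p = 0.317). Hes6, which promotes neuronal differentiation by opposing Hes1, had 459 and 503 in Chd4 RNAi cells, against 717 and 690 in control cells (-0.55, adjusted p = 0.00865).

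Markers of other cell types moved in the same comparison, in which 10.3% of all genes tested rose and 7.79% fell. Of 6 tested trophectoderm markers 3 rose and 0 fell, and the summed signal of the 9 listed genes was 5427 and 5711 on the Chd4 RNAi arrays, against 2808 and 2788 on the control arrays. Tfap2c rose 2.62-fold, Krt18 2.22-fold and Krt7 at least 3.06-fold (adjusted p = 3.04e-06, 3.2e-05 and 0.000975). The other 6 summed to 1035 and 1052 in Chd4 RNAi cells, against 951 and 1063 in control cells. Of 3 tested neural crest markers 1 fell, the forkhead gene Foxd3, with 203 and 214 in Chd4 RNAi cells, against 466 and 474 in control cells (adjusted p = 0.000435). The summed signal of the 6 crest genes was 462 and 493 in Chd4 RNAi cells, against 651 and 718 in control cells, and without Foxd3 it was 259 and 279 in Chd4 RNAi cells, against 184 and 244 in control cells. Of 9 glial markers on the array 6 lay below every array's median, with sums of 707 and 698 in Chd4 RNAi cells, against 806 and 740 in control cells. The glutamate transporter gene Slc1a3 was the 1 of 4 tested that fell (log2 -0.82, adjusted p = 0.0183), a call that was lost without control replicate 1 or Chd4 RNAi replicate 2 (highest adjusted p 0.158). Without Slc1a3 the glial sums were 526 and 544 in Chd4 RNAi cells, against 473 and 480 in control cells. Of the fibroblast markers Thy1, also a surface protein of neurons, rose 3.06-fold (adjusted p = 7e-05), and of the muscle markers the troponin gene Tnnc2 rose at least 5.50-fold (adjusted p = 1.13e-05). The control mean of Tnnc2, 40.1, lay under the 42.4 of the filter, so the Chd4 RNAi arrays carried it into the tested set. In limma with no filter its adjusted p was 0.000109. Without Thy1 the other 6 fibroblast markers summed to 170 and 120 in Chd4 RNAi cells, against 146 and 201 in control cells. All 7 fibroblast markers summed to 771 and 666 in Chd4 RNAi cells, against 322 and 400 in control cells, and the 6 muscle markers to 1223 and 1089 in Chd4 RNAi cells, against 742 and 560 in control cells. Without Tnnc2 the muscle sums were 823 and 652 in Chd4 RNAi cells, against 697 and 526 in control cells. None of the primitive endoderm or mesoderm markers passed in limma, with 1 of 5 and 0 of 2 tested at an unadjusted p under 0.05. The endoderm markers summed to 487 and 452 in Chd4 RNAi cells, against 380 and 388 in control cells, and the mesoderm markers to 221 and 202 in Chd4 RNAi cells, against 258 and 68.6 in control cells. The part of any of these cell types in the changes of the neuronal genes was not tested.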

How the data were processed

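Per the labels, total RNA of 4 cultures was labelled with biotin by the standard Affymetrix protocol. The authors deposited array intensity values on a linear scale, made with MAS5 for 45101 probe sets on each of the 4 arrays, per the submitters' processing notes. How the signals were scaled, and by which release of the software, is not given in the sources used here, and detection calls were not used.

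Sample titles gave the groups and replicate numbers. Gene names came from the platform annotation (34945 non-control probe sets with 1 symbol, 932 with several, 9160 with none), and 0 of the 34741 matched by Entrez ID needed a newer symbol. Log2 signals of the non-control probe sets in the top 60% by mean were fitted with limma 3.58.1 in R 4.3.3 (lmFit, then eBayes with the trend option; 9.24 prior degrees of freedom added to 2 residual ones). Tests were two-sided, with Benjamini-Hochberg adjustment over all 27022 probe sets calling those under 0.05. Each log2 difference carries the standard error of this fit. For a gene, the probe set with the highest mean was used. Where a group lay under the median signal of 76.0, lower signals were raised to that median and the fold is written "at least"; it is no confidence limit, and the p beside it is that of the fit on unraised signals unless another is named.

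The fit was also run on made-up data for Chd4 RNAi against control. Among 27022 probe sets, 67 were changed 1.5-fold, 67 were changed 2-fold and 66 were changed 4-fold. The fit recovered 32.8%, 52.2% and 77.3% of them, with 2 calls among unchanged probe sets. Far more probe sets were called on the arrays, at 2017 higher and 1830 lower. Data with that many changes, or with another variance model, were not tested.

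The members and lists were chosen with earlier results of these data known. The genes named are all members, Chd4, Rest and the called genes of lowest p in each list, up to 4. Further family members of Neurod1, the stathmins, the filaments and the Id genes, and also Sox1, Myt1l and Dppa5a, were named after their values were seen. The number of arrays limits the precision. No gene of like pattern was sought, since 4 arrays give no correlation across samples. Promoter windows are from RefSeq.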

Additional observations from a re-analysis of the deposited data

How the results depend on the processing

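The calls of Neurod1 and Stmn3 were kept at both probe sets under the pseudocount of 16, quantile normalization, the top 40% of probe sets, no filter, a replicate block and with each array left out in turn. Without the intensity trend 0 member probe sets were higher and 0 lower, and 0 of all probe sets passed where 2017 higher and 1830 lower had. With genes fitted by brightest probe set and no trend, 2 member genes (Neurod1 and Stmn3) were lower and 0 higher. Over the 12615 genes of that fit, 293 were higher and 128 lower. With dim signals set to the median, 0 members passed in either direction and 285 probe sets were higher and 205 lower over the array. The Chd4 probe sets also lost their calls in that fit (adjusted p = 0.0726 to 0.214). Many probe sets then have no spread, and the fitted prior degrees of freedom were 0.803. With those at the floor on every array left out, 6 member probe sets were lower and 0 higher. Over the 24900 probe sets of that setting, 1369 were higher and 1198 lower. Nefl at 1426255_at lost its call there (adjusted p = 0.0566) while 1454672_at gained one (0.0287), and 3 member genes were lower in place of 4. That setting and the gene fit without trend were chosen after seeing the data.

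The rise of Tubb3 made every count of higher members. That count was 0 with no filter, and 0 to 1 with each array left out, for probe sets and genes alike. Of the differences that did not pass, Nes at 1418289_at ranged from -0.54 to 0.11 with each array left out. Map2 at 1421328_at ranged from -0.34 to 0.35 and was -0.0025 with the pseudocount, and Map2 was -0.10 with its probe sets averaged. The 4 Rest probe sets ranged from -0.14 to 0.046, -0.084 to 0.12, -0.096 to 0.025 and -0.088 to 0.066, and their average was -0.019. Averaging the probe sets of a gene left 724 genes higher and 656 lower of 11655. The averages included probe sets too dim to be tested, and Dpysl2, Sox3 and Msi1 had no other tested probe set. Utf1, a called pluripotency marker, turned to -0.69 (adjusted p = 0.178), and Stmn2, Prph, Kif5c, Dpysl2, Sox3, Msi1, Jag1, Id2 (adjusted p = 0.0594), Hes6 (0.0655), Hdac2 (0.142), Kdm1a (0.0835) and Slc1a3 (0.321) lost their calls. Among the 14 member probe sets, 156 of their results under alternatives kept their side of the threshold and direction, 27 lost the call, 1 gained it and 5 turned sign.

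The replicate numbers share nothing that the labels state. Deviations of same-numbered arrays correlated at -0.0019 over probe sets, so they were not treated as paired. With the replicate block 6 member probe sets were lower and 1 higher, Celf5 lost its call (adjusted p = 0.0576), and over all probe sets 1896 were higher and 1739 lower. Dim signals limit what can be said of Dcx, of Nefm and of the further Map2 and Nes probe sets. All p values rest on the spread between these 4 arrays. The variance of each probe set was drawn toward that of probe sets of like signal, with 9.24 prior degrees of freedom against 2 residual ones.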
